A study of Mus musculus with 59 samples.

Results

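Expression of 9 genes that act in the piRNA pathway or mark later germ cells was followed in single mouse epiblasts that lacked one of 2 histone methyltransferases. The genes were *Asz1*, *Mael*, *Ddx4*, *Dazl*, *Piwil2*, *Mov10l1*, *Tdrd1*, *Tdrkh* and *Pld6*, chosen by symbol from the 22134 genes that had a transcript in the count files. All 9 were listed, with between 1 and 5 transcripts each. Each gene is represented by its transcript with the highest mean raw count over the 14 epiblasts, and a transcript absent from a file was given a count of 0.

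piRNAs are small RNAs of the germline that guide PIWI proteins to transposon transcripts, which are then cut or silenced in chromatin. Their precursors are processed on the surface of mitochondria and in the adjacent cytoplasmic granules called nuage, where Tudor domain proteins hold the machinery together. In the embryo most of these genes come on after primordial germ cells have reached the gonad, and in somatic cells many of them are kept silent by DNA methylation at CpG-rich promoters. The pluripotent epiblast is the tissue from which both the somatic lineages and the germ cells arise. G9a, the product of *Ehmt2*, dimethylates histone H3 at lysine 9, and EZH2 is the catalytic subunit of the Polycomb complex that trimethylates histone H3 at lysine 27.

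RNA was sequenced from 14 dissected epiblasts at E6.25, each from 1 embryo. The *Ehmt2* cross gave 4 knockout epiblasts (Ehmt2-/-, labelled G9a-/-) and 4 controls, and the *Ezh2* cross gave 3 knockout epiblasts (Ezh2-/-) and 3 controls. The labels give a mixed background and the controls as wild type, whereas the study describes the controls as wild type or heterozygous, from matings of heterozygotes. Both deletions were constitutive, so the whole embryo lacked the gene, and the *Ehmt2* mice also carried an Pou5f1-EGFP reporter. The amount of RNA taken into amplification was 750 pg per epiblast. The study took the *Ehmt2* epiblasts from 4 litters and the *Ezh2* epiblasts from 3, and the litter of each epiblast was not known here. P-values measure the spread between these epiblasts, and the main fits had no term for litter.

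The counts summed over all transcripts lay between 30161171 and 68464895 per epiblast, and a read could be counted on several isoforms of a gene. Levels are given in CPM, edgeR's scaled count unit, with TMM scaling over all 14 epiblasts. *Ehmt2* itself had a mean of 17.9 ± 11.1 CPM (SD, n = 4) in its controls and 5.60 ± 2.88 CPM (n = 4) in its knockouts, with a log2 fold change of -1.63 (adjusted p = 0.00454 in edgeR's quasi-likelihood test with Benjamini-Hochberg adjustment). *Ezh2* had 75.1 ± 29.8 CPM in the controls of its cross and 13.0 ± 2.60 CPM in the knockouts (n = 3 each), a log2 fold change of -2.52 (adjusted p = 0.016, edgeR). Replicate 4 of both *Ehmt2* groups stood apart. Its 2 libraries were the deepest and differed from the other replicates of their group by 156 to 205.7 times the chi-square that sampling noise gives, against 17.7 to 33.2 times among replicates 1 to 3, and the model had a term for this set. The summed level of 9 visceral endoderm markers was 1111 CPM in *Ezh2* control 2 and 2536 CPM in *Ezh2* knockout 1, and at most 22.5 CPM in the other *Ezh2* epiblasts.

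All 9 genes were rare in control epiblasts. Per kilobase of transcript, the mean levels over the 7 controls were 1.88 CPM for *Ddx4*, 1.32 for *Mael*, 0.996 for *Tdrd1*, 0.921 for *Pld6*, 0.611 for *Mov10l1*, 0.520 for *Tdrkh*, 0.409 for *Dazl*, 0.334 for *Piwil2* and 0.110 for *Asz1*. The ranges of every pair of neighbours in this order overlapped. The epiblasts carried the markers of that tissue, such as *Pou5f1* and *Dnmt3b*. The summed level of 8 epiblast markers was 2620 to 2973 CPM in *Ehmt2* controls and 1541 to 2306 CPM in *Ehmt2* knockouts, so that every knockout lay below every control. *Dnmt3b* made up most of each control sum, at 1635 to 2068 CPM, and had 980 to 1417 CPM in the *Ehmt2* knockouts. Of the single markers only *Dnmt3b* and *Otx2* did not overlap between the *Ehmt2* groups. Of the 8 markers, 7 had a negative log2 fold change (median -0.32), 4 were lower at an unadjusted p under 0.05, and edgeR and DESeq2 called 0. Over all genes the median was 0.01 and 51.1% of values were positive. No share of genes lower was computed, here or for the lists below. The part of these markers in the *Ehmt2* values of the 9 genes was not tested. The sum overlapped between *Ezh2* controls (2554 to 2741 CPM) and *Ezh2* knockouts (2056 to 2733 CPM). In a whole epiblast, fewer cells with a transcript and less of the transcript per cell cannot be told apart.

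**Figure D1:**
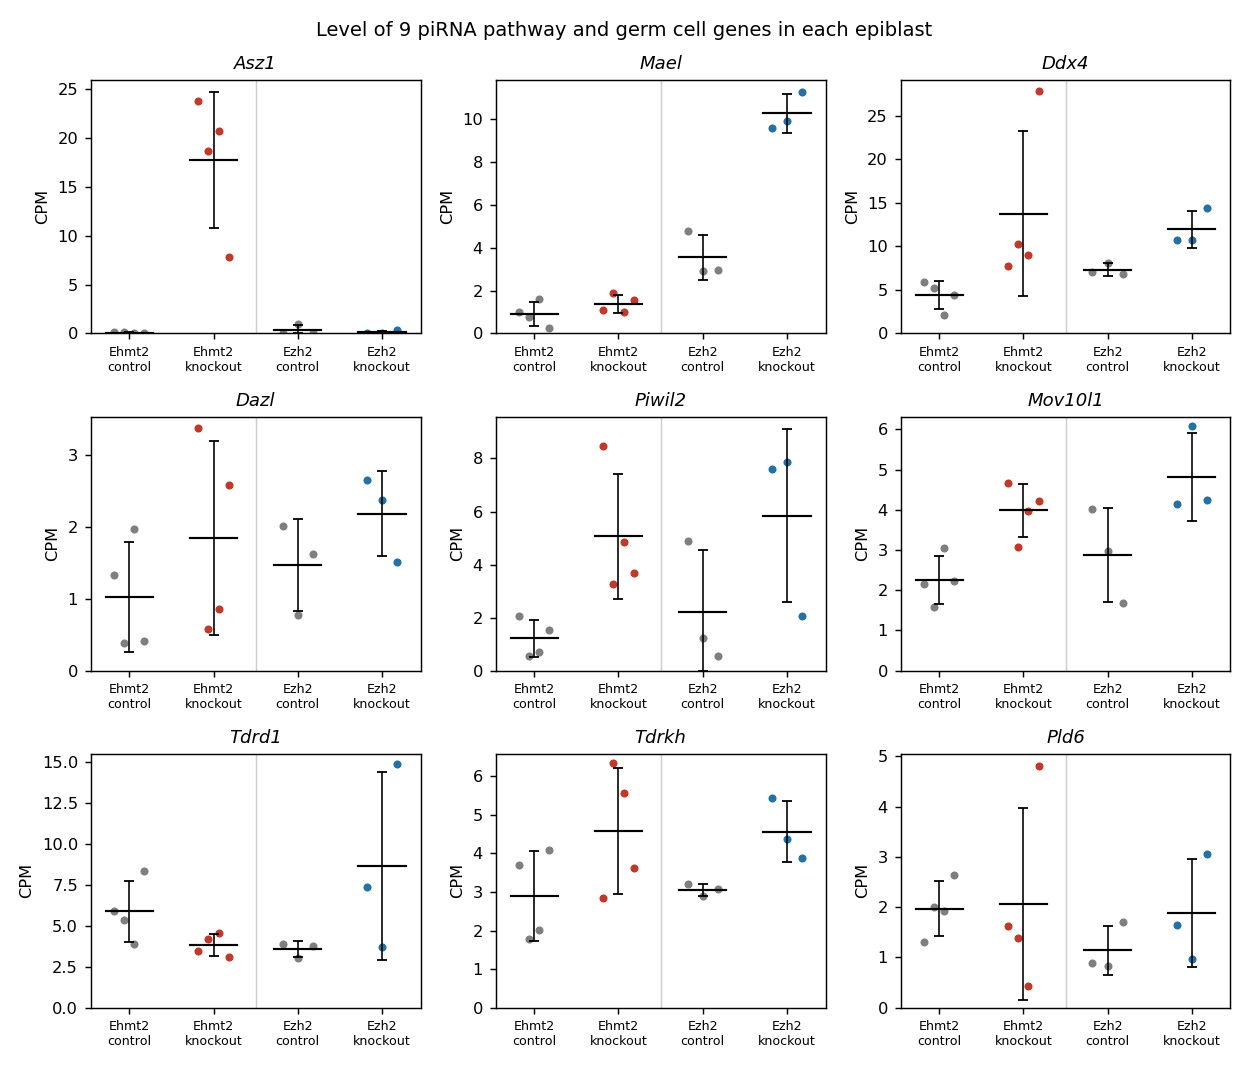
Level of each gene in CPM (vertical axes, linear, from 0) in every epiblast of the 4 groups on the horizontal axes. Points are epiblasts, horizontal bars are group means and error bars are 1 SD, cut at 0 where they would pass it. *Asz1* is near 0 in all groups but the *Ehmt2* knockouts, where it lies between 7.80 and 23.8 CPM.

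*Asz1* separated the *Ehmt2* knockouts from every other epiblast. *Asz1* encodes GASZ, a scaffold protein of germ cell mitochondria and nuage that is required for piRNA production. Its transcript ENSMUST00000010940 lies on chromosome 6 from 18050964 to 18109057 (minus strand, GRCm38) and has 13 exons. In *Ehmt2* controls 1 to 4 it had 4, 7, 2 and 0 reads, or 0.1003, 0.151, 0.0534 and 0 CPM. In *Ehmt2* knockouts 1 to 4 it had 838, 648, 796 and 467 reads, or 23.8, 18.7, 20.7 and 7.80 CPM. The 2 groups did not overlap, and the mean rose from 0.0763 ± 0.0647 CPM (SD, n = 4) to 17.7 ± 6.95 CPM (n = 4). The log2 fold change was 7.87 ± 0.38 (SE), with an adjusted p of 3.44e-06 in edgeR's quasi-likelihood test. Against the mean of controls 1 to 3, knockouts 1, 2 and 3 had 234, 184 and 203 times the level. Knockout 4, the lowest of the knockouts, had 467 reads where control 4 had 0.

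*Asz1* stayed near the bottom of the scale in the *Ezh2* cross. The 3 controls had 0, 33 and 3 reads, or 0, 0.942 and 0.0852 CPM, and the 3 knockouts had 2, 0 and 12 reads, or 0.0619, 0 and 0.314 CPM. The highest of these 6 values belonged to a control, *Ezh2* control 2, one of the epiblasts with high visceral endoderm markers. The transcript did not pass the filter on low counts there, and without the filter its log2 fold change was -1.41 ± 1.53 (SE, adjusted p = 0.854 in edgeR). In a single fit of all 14 epiblasts the *Ehmt2* effect on *Asz1* exceeded the *Ezh2* effect by 9.27 ± 1.35 (SE) on the log2 scale (adjusted p = 0.0156, edgeR). *Asz1* was the only one of the 9 genes for which this difference passed the threshold, against 0.118% of all genes tested. It passed the filter on low counts in this fit only through the *Ehmt2* knockouts, where it was high. The test depended on the few reads in the *Ezh2* cross: the difference was 6.34 (adjusted p = 0.421) without *Ezh2* control 2, and 8.67 (adjusted p = 0.0541) without *Ezh2* knockout 2. With the replicate number as a block it was 8.85 (adjusted p = 0.199). It was 6.04 (adjusted p = 0.449) when both *Ezh2* epiblasts with high visceral endoderm markers were left out.

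The rise of *Asz1* was seen over its whole set of listed isoforms. The other 4 transcripts had 0 to 6 reads in *Ehmt2* controls and 0 to 32 in the *Ezh2* epiblasts. In *Ehmt2* knockouts the longer retained-intron transcript (ENSMUST00000136626) had 441 to 732 reads. The isoform annotated for nonsense-mediated decay had 145 to 389 reads and the processed transcript 93 to 365. A short second retained-intron transcript of 297 nt reached 9 to 18 reads. The isoforms share exons, so their counts are not independent of each other.

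**Figure D2:**
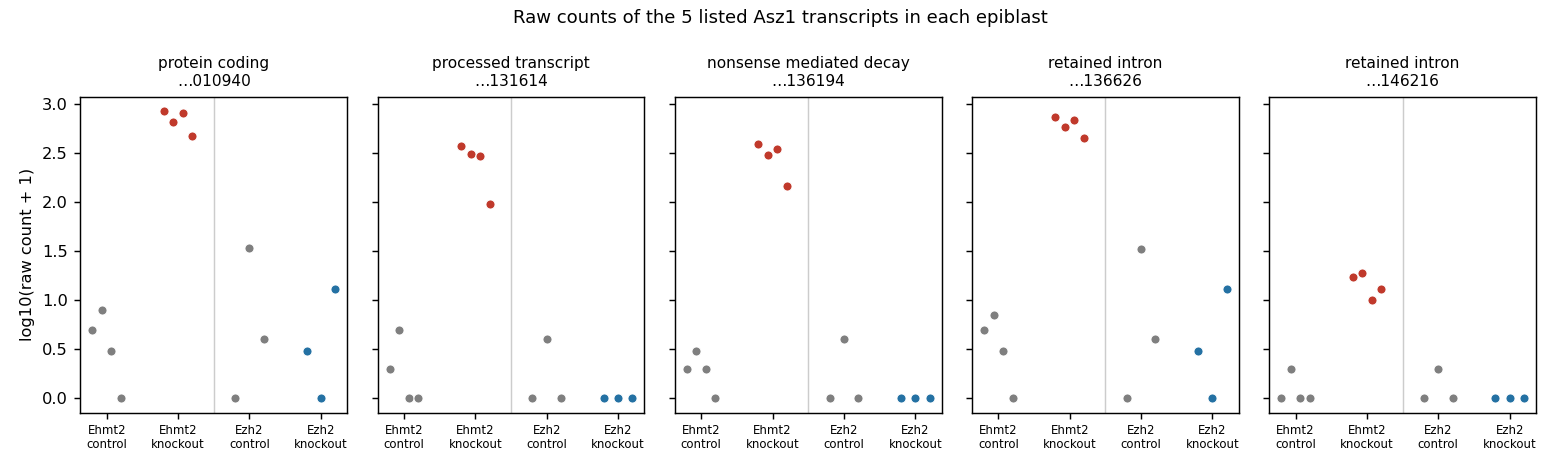
Raw counts of the 5 listed *Asz1* transcripts, 1 panel each, as log10(count + 1) on the vertical axis and the 4 groups on the horizontal axis, with 1 point per epiblast. In each panel the 4 *Ehmt2* knockouts lie above the 4 *Ehmt2* controls, at 467 to 838 reads against 0 to 7 for the protein-coding transcript.

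The promoters are shown because the annotation gives nearly all of these genes CpG-rich starts. RefSeq promoter windows (GRCm38.p6) were found for 8 of the 9 genes, with *Piwil2* not matched, and had 11 listed starts. In the 250 bases upstream of the start, the number of CpG dinucleotides was 15 for *Asz1*, 18 for *Mael*, 31 for *Ddx4*, 20 for *Dazl* and 19 each for *Mov10l1* and *Tdrkh*, against a median of 6 over 32851 mouse promoters. The 3 starts of *Tdrd1* had 11, 22 and 3 and the 2 starts of *Pld6* had 21 and 14. The run upstream of *Asz1*, the gene with the clearest change, is chr6:18109062-18109311 on the minus strand:
Asz1: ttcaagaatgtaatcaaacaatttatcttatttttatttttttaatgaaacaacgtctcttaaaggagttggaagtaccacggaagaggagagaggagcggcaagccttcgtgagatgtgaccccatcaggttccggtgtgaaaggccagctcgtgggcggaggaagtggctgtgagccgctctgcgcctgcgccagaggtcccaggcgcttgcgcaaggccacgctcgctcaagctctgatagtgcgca

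The letters CACGTG, the palindromic E-box bound by dimers of the MAX family, were searched in the same windows. They were present at a listed start of 5 of the 8 genes, *Mael*, *Ddx4*, *Mov10l1*, *Tdrd1* and *Pld6*, and of 6.86% of all 27025 genes. By start, 6 of the 11 held them, against 6.02% of all promoters and 9.37% of the 12417 promoters with at least 10 CpG. *Asz1*, *Dazl* and *Tdrkh* did not have these letters in the window. An E2F-like motif, TCCCGC on either strand, was found for *Mael* and *Ddx4* and in 16.9% of all promoters. A match is a description of the letters and does not show a bound site. The run upstream of *Mael*, the gene with the clearest separation in the *Ezh2* cross, is given whole (chr1:166238745-166238994, minus strand), and the others as 30 bases, with the E-box in capitals. The windows are chr13:112652322-112652351 (minus) for *Ddx4*, chr15:88982744-88982773 (plus) for *Mov10l1*, chr19:56826186-56826215 (plus) for *Tdrd1* and chr11:59787673-59787702 (minus) for *Pld6*:
Mael: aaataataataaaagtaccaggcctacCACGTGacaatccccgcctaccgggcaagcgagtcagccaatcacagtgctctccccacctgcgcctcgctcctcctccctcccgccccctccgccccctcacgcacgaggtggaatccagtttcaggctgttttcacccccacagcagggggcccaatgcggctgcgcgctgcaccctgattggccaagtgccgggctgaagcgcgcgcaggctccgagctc
Ddx4: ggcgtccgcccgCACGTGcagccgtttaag
Mov10l1: ccttCACGTGctaaccgccaacctctcgtg
Tdrd1: tggggctgcgcgCACGTGggagtaaactgc
Pld6: ggggcgggctggCACGTGttgggcgcgcaa
The first base of the E-box lay 223 nt upstream of the RefSeq start in *Mael*, 246 nt in *Mov10l1*, 33 nt in *Pld6* and 29 nt in *Ddx4*. These starts are not always those of the transcripts counted here. The counted *Ddx4* transcript starts at 112652475, so its E-box lies within the span of that transcript. The counted *Mov10l1* transcript starts at 88982909, upstream of the RefSeq start. In *Tdrd1* 1 match fell in the windows of 2 starts, 11 nt and 77 nt upstream of them.

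*Mael* encodes Maelstrom, a nuage protein needed for transposon silencing and for meiosis. Its single listed transcript lies on chromosome 1 from 166201385 to 166238744. *Ezh2* controls 1 to 3 had 4.77, 2.91 and 2.95 CPM and *Ezh2* knockouts 1 to 3 had 9.59, 9.88 and 11.3 CPM. The *Ezh2* groups were apart by a wide gap, with every knockout at least 2.71 times the control mean. The log2 fold change was 1.54 ± 0.27 (SE), with an unadjusted p of 0.000157 and an adjusted p of 0.186 in edgeR, so it was not called, whereas the DESeq2 Wald test gave an adjusted p of 6.4e-05. In the *Ehmt2* cross *Mael* was lower, at 1.00, 0.757, 1.60 and 0.245 CPM in controls and 1.08, 1.87, 0.987 and 1.57 CPM in knockouts. These groups overlapped (log2 fold change 0.79 ± 0.57, adjusted p = 0.640, edgeR). All *Ezh2* controls were above all *Ehmt2* controls for *Mael*, where cross and library handling cannot be told apart.

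*Ddx4*, the mouse homologue of Drosophila vasa, encodes an RNA helicase of nuage that is widely used to mark germ cells. Its transcript ENSMUST00000099166 lies on chromosome 13 from 112598335 to 112652475. *Ehmt2* controls 1 to 4 had 5.87, 5.17, 2.16 and 4.46 CPM and *Ehmt2* knockouts 1 to 4 had 7.78, 10.2, 9.01 and 27.8 CPM. Every *Ehmt2* knockout was above every control, and knockout 4 stood far above the other knockouts. The log2 fold change was 1.44 ± 0.35 (SE), which missed the threshold (adjusted p = 0.111, edgeR) and was 1.04 with replicates 1 to 3 alone. The DESeq2 Wald test passed it (adjusted p = 0.00196). *Ezh2* controls had 7.01, 8.14 and 6.84 CPM and *Ezh2* knockouts 10.7, 10.7 and 14.4 CPM, again without overlap. The fold was smaller, 0.71 ± 0.22 on the log2 scale (adjusted p = 0.565, edgeR).

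*Piwil2* encodes MILI, a PIWI protein that loads piRNAs in male germ cells. Its transcript spans chromosome 14 from 70372477 to 70429094. *Ehmt2* controls had 2.06, 0.562, 0.695 and 1.54 CPM and *Ehmt2* knockouts had 8.46, 3.26, 4.85 and 3.68 CPM. The groups did not overlap, and each knockout had between 2.38 and 7.66 times the mean of the controls of its set. The log2 fold change was 2.06 ± 0.48 (SE), with an adjusted p of 0.0896 in edgeR and 0.00115 by DESeq2. *Ezh2* controls had 4.88, 1.23 and 0.539 CPM and *Ezh2* knockouts 7.61, 7.85 and 2.07 CPM. Knockout 3 lay below control 1, and the log2 fold change of 1.404 ± 0.72 had an adjusted p of 0.758 (edgeR). Without *Ezh2* control 1 it was 2.72 (adjusted p = 0.409), and leaving out the other epiblasts gave 0.94 to 1.80.

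*Mov10l1* encodes the RNA helicase that binds and unwinds piRNA precursors. Its most abundant transcript spans chromosome 15 from 88982909 to 89055148. *Ehmt2* controls had 2.16, 1.58, 3.05 and 2.24 CPM and *Ehmt2* knockouts had 4.66, 3.09, 3.97 and 4.23 CPM. The groups met without overlapping, since the lowest knockout was barely above the highest control. *Ezh2* controls had 4.01, 2.97 and 1.68 CPM and *Ezh2* knockouts 4.14, 6.09 and 4.24 CPM, also without overlap. Its log2 fold changes were close to each other in the 2 crosses, 0.83 ± 0.30 and 0.75 ± 0.36 (SE), and neither passed the threshold (adjusted p = 0.297 and 0.735, edgeR).

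Among the Tudor domain proteins *Tdrd1* had log2 fold changes of opposite sign in the 2 crosses, whereas those of *Tdrkh* were similar (0.70 and 0.59). *Tdrd1* encodes a nuage scaffold that binds methylated arginines of PIWI proteins. Its transcript spans chromosome 19 from 56826209 to 56870012, and its 4 listed isoforms carried almost the same counts. *Ehmt2* controls had 5.89, 5.36, 3.90 and 8.38 CPM and *Ehmt2* knockouts 3.46, 4.21, 4.54 and 3.09 CPM. These groups overlapped (log2 fold change -0.58 ± 0.28, adjusted p = 0.455, edgeR). *Ezh2* controls had 3.93, 3.03 and 3.78 CPM and *Ezh2* knockouts 7.39, 3.69 and 14.9 CPM, with 2 of 3 knockouts above every control (1.28 ± 0.43, adjusted p = 0.578, edgeR). The difference between the 2 effects, -1.86 ± 0.53 (SE), had an unadjusted p of 0.00292 and an adjusted p of 0.342 in edgeR, so it did not pass the threshold.

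*Tdrkh* encodes a Tudor and KH domain protein of the mitochondrial surface that takes part in trimming piRNA ends. Its transcript lies on chromosome 3 from 94413273 to 94434668, and 2255 of its exonic bases are shared with exons of *Oaz3* on the opposite strand. Reads of the 2 genes there cannot be separated without strand. *Ehmt2* controls had 3.71, 1.77, 2.00 and 4.09 CPM and *Ehmt2* knockouts 2.84, 6.34, 5.56 and 3.61 CPM, which overlapped (log2 fold change 0.70 ± 0.37, adjusted p = 0.506, edgeR). *Ezh2* controls had 3.20, 2.88 and 3.07 CPM and *Ezh2* knockouts 5.44, 4.38 and 3.88 CPM. All *Ezh2* knockouts exceeded the controls, by a log2 fold change of 0.59 ± 0.28 (adjusted p = 0.728, edgeR). The other listed isoform, of 2642 nt, had log2 fold changes of 0.92 in the *Ehmt2* cross and 0.58 in the *Ezh2* cross. In the *Ehmt2* cross its groups overlapped, with an unadjusted p of 0.0316 and an adjusted p of 0.368 in edgeR.

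*Dazl* and *Pld6* varied from epiblast to epiblast within each group. *Dazl*, on chromosome 17 from 50279397 to 50293636, encodes an RNA-binding protein that licenses germ cell development through translation. It had 0.389 to 1.98 CPM in *Ehmt2* controls and 0.577 to 3.38 CPM in *Ehmt2* knockouts, and 0.771 to 2.02 CPM in *Ezh2* controls and 1.52 to 2.66 CPM in *Ezh2* knockouts. Neither log2 fold change passed the threshold, at 0.92 ± 0.71 for *Ehmt2* (adjusted p = 0.670, edgeR) and 0.58 ± 0.46 for *Ezh2* (adjusted p = 0.857). *Pld6* encodes the mitochondrial nuclease that forms the ends of piRNA intermediates. Its most abundant transcript, on chromosome 11 from 59783897 to 59787645, is annotated as a processed transcript, and the protein-coding isoform had at most 0.996 CPM in any epiblast. It had 1.30 to 2.64 CPM in *Ehmt2* controls and 0.441 to 4.81 CPM in *Ehmt2* knockouts, and 0.828 to 1.70 and 0.961 to 3.07 CPM in *Ezh2* controls and knockouts. The same held for *Pld6*, at -0.22 ± 0.46 (adjusted p = 0.901, edgeR) and 0.73 ± 0.54 (adjusted p = 0.841).

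**Figure D3:**
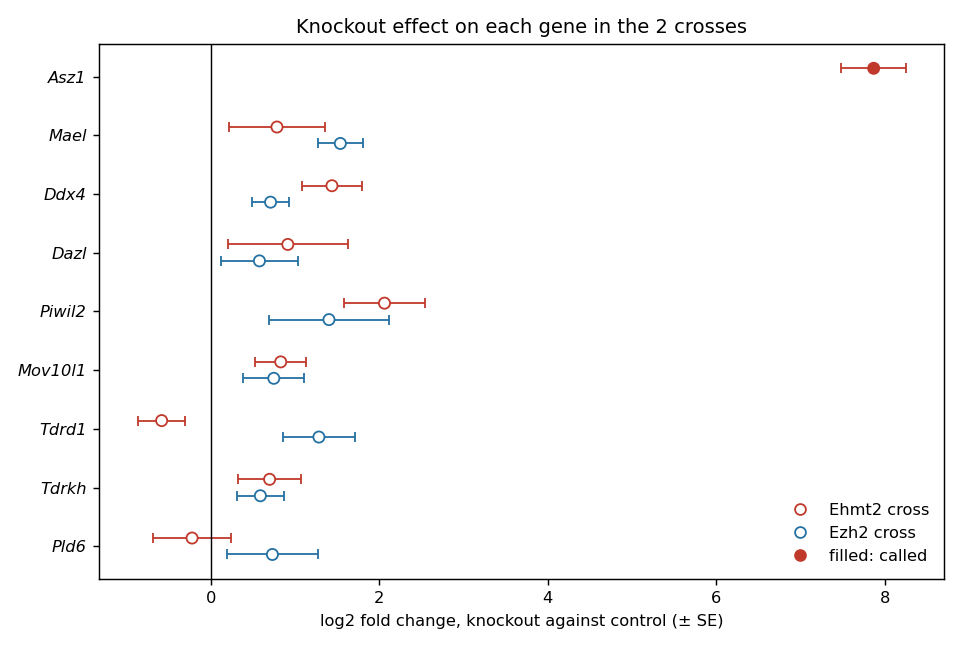
Log2 fold change of knockout against control (horizontal axis) with its standard error for each gene (vertical axis) in the *Ehmt2* cross (red) and the *Ezh2* cross (blue). The filled point, *Asz1* at 7.87, is the only call by edgeR, and *Asz1* has no *Ezh2* point because it did not pass the filter there.

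Counted together, edgeR called 1 of the 9 genes higher in *Ehmt2* knockouts, against 0.786% of the 13749 genes tested with 1 transcript each. That gene, *Asz1*, had 0 to 7 reads in *Ehmt2* controls and passed the filter on low counts only through the knockouts, where it was high. It is part of each count in this paragraph. DESeq2 called 3, *Asz1*, *Ddx4* and *Piwil2*. All shares over all genes are those of edgeR, and none was computed for DESeq2. At an unadjusted p under 0.05, 4 were higher, against 8.58% of genes. Groups did not overlap for 4 of the 9, *Asz1*, *Ddx4*, *Piwil2* and *Mov10l1*, against 3.44% of genes. For each of these 4 the two-sided exact permutation test on CPM gave p = 0.0286, the smallest that 4 against 4 allow, out of 9 such tests in this cross. The median log2 fold change of the 9 was 0.83, against 0.01 over all genes, with 7 positive values.

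Among *Ezh2* knockouts edgeR called 0 of the 8 genes that passed the filter, against 0% of 14010 genes. DESeq2, for which no share over all genes was computed, called 1, *Mael*. At an unadjusted p under 0.05 edgeR had 3, *Mael*, *Ddx4* and *Tdrd1*, against 5.5% of genes. Groups did not overlap for *Mael*, *Ddx4*, *Mov10l1* and *Tdrkh*, against 7.52% of genes, and 3 epiblasts against 3 cannot give an exact permutation p below 0.1. The median log2 fold change of the 8 was 0.74, against 0.03 over all genes, and all 8 were positive.

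The genes other than *Asz1* added up to more in the knockouts of both crosses. Without *Asz1* the summed level of the other 8 was 17.3 to 24.0 CPM in *Ehmt2* controls and 30.2 to 51.4 CPM in *Ehmt2* knockouts, and 22.2 to 30.7 CPM in *Ezh2* controls and 45.9 to 55.4 CPM in *Ezh2* knockouts. The groups did not overlap in either cross. The largest *Ehmt2* value was that of knockout 4, in which *Ddx4* alone had 27.8 CPM. The sum is dominated by the genes of higher count, and no test was made of it.

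Some markers of the extraembryonic ectoderm, which borders the epiblast, were higher in *Ehmt2* knockouts. The summed level of 8 extraembryonic ectoderm markers was 24.9 to 128.1 CPM in *Ehmt2* controls, and 265, 93.8, 114.9 and 17.5 CPM in *Ehmt2* knockouts 1 to 4, which overlapped. *Eomes* made up most of each control sum, at 18.6 to 122.1 CPM, and had 16.6 to 118.0 CPM in the knockouts. Each of the other markers was higher in knockouts 1 to 3 than in every control. *Elf5*, for example, had 60.5, 5.85 and 12.2 CPM there against at most 0.534 CPM in controls. Of the 8 markers, all of which passed the filter, *Elf5* and *Tfap2c* were called higher by edgeR, against 0.786% of genes. DESeq2 also called *Cdx2*. At an unadjusted p under 0.05, 6 of the 8 were higher, against 8.58% of genes. Of 8 visceral endoderm markers that passed the filter, 4 had positive and 4 negative values, and edgeR and DESeq2 called 0. In *Ehmt2* knockout 4 *Elf5*, *Cdx2*, *Tfap2c* and *Hand1* were all at 0, *Eomes* was at 16.6 CPM, *Asz1* at 7.80 CPM and *Ddx4* at 27.8 CPM. *Ehmt2* control 4 was also at 0 for *Elf5*, *Cdx2* and *Hand1*, and at 0.0188 CPM for *Tfap2c*. Over knockouts 1 to 4 *Asz1* followed the order of the marker sums and *Ddx4* the reverse order. Whether these values are linked was not tested. With the mean of these markers as a covariate, the log2 fold change of *Asz1* was 7.99 (adjusted p = 0.000146) and that of *Ddx4* 2.39 (adjusted p = 0.0243), both in edgeR, whereas that of *Piwil2* was 1.404 (adjusted p = 0.264). In the *Ezh2* cross the sums were 64.4 to 97.4 CPM in controls and 71.5 to 145.5 CPM in knockouts. All 6 markers that passed the filter there had positive log2 fold changes (median 1.22), and 3 were higher at an unadjusted p under 0.05, against 5.5% of genes. Groups did not overlap for *Plet1* (2.41) and *Hand1* (2.91), against 7.52% of genes. Both are named after their values were seen. Among these 6 edgeR called 0 and DESeq2 called *Plet1*. *Elf5*, which did not pass the filter, was at most 0.483 CPM in *Ezh2* controls and 2.91 CPM in *Ezh2* knockouts. With the same covariate the log2 fold change of *Mael* was 1.48, and those of *Dazl* and *Piwil2* were below 0, at -0.16 and -0.57.

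The summed level of 6 early germ cell markers overlapped between the *Ehmt2* groups. The sum of *Dppa3*, *Nanos3*, *Prdm1*, *Prdm14*, *Kit* and *Ifitm3* was 16.6 to 23.8 CPM in *Ehmt2* controls and 16.5 to 24.5 CPM in *Ehmt2* knockouts. *Ifitm3* had the highest mean of the 6 in every group, between 11.0 and 16.6 CPM, so the sum mostly follows this gene. *Nanos3* and *Prdm14*, the most restricted of the 6, had a mean of at most 0.0938 CPM in any group. The sum in the *Ezh2* cross was 20.0 to 25.5 CPM in controls and 28.0 to 38.3 CPM in knockouts, without overlap. The part of this sum in the values of *Mael* and *Ddx4* was not tested. Of the 6 markers 4 passed the filter in each cross, and edgeR called 0. At an unadjusted p under 0.05 1 was lower in *Ehmt2* knockouts, and 2 were higher in *Ezh2* knockouts, against 5.5% of genes. DESeq2 called *Kit* lower in *Ehmt2* knockouts. *Kit*, named after its values were seen, encodes a receptor of migrating germ cells. It had 3.58 to 5.45 CPM in *Ehmt2* controls and 0.596 to 2.65 CPM in *Ehmt2* knockouts, without overlap (log2 fold change -1.60, adjusted p = 0.12, edgeR).

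**Figure D4:**
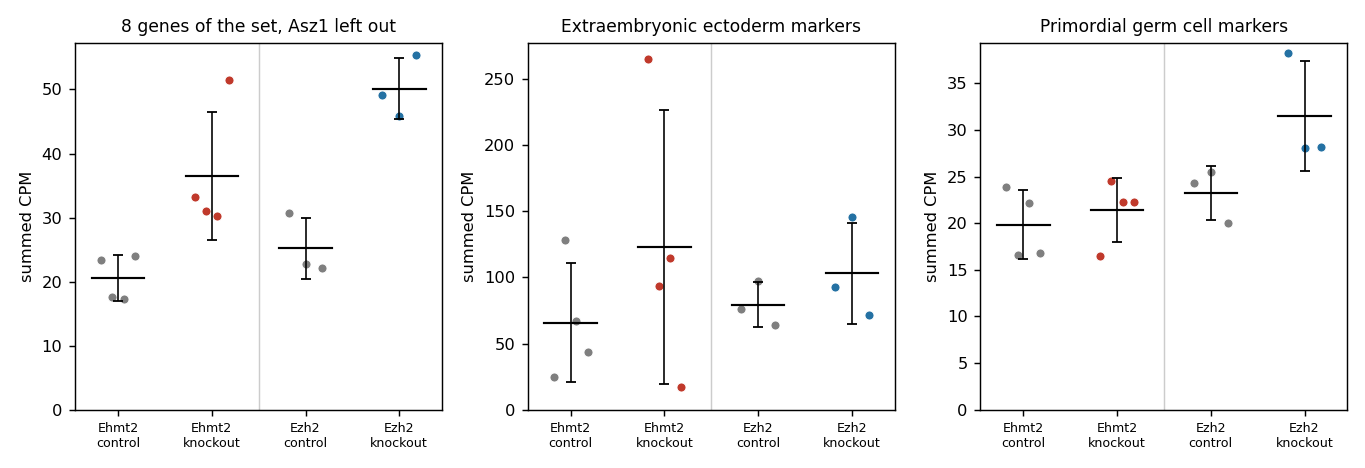
Summed CPM (vertical axes, linear, from 0) of the 8 genes other than *Asz1*, of 8 extraembryonic ectoderm markers and of 6 primordial germ cell markers in every epiblast, with group means and 1 SD, cut at 0. The 8 genes lie higher in the knockouts of both crosses, at 30.2 to 51.4 against 17.3 to 24.0 CPM in the *Ehmt2* cross. The extraembryonic ectoderm sums, mostly *Eomes* in the controls, overlap between groups.

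The rest of the piRNA pathway held 1 more gene that was called. Of 20 further genes, 18 were listed, and 6 of them, *Piwil1*, *Tdrd6*, *Tdrd9*, *Henmt1*, *Exd1* and *Spocd1*, had a mean under 1 CPM in every group. In the *Ehmt2* cross 13 passed the filter, 10 with a positive and 3 with a negative log2 fold change (median 0.71). At an unadjusted p under 0.05 edgeR had 3 higher, against 8.58% of genes, and 1 lower. With the adjusted p and the fold minimum 1 was called higher, against 0.786% of genes. That gene was *Gtsf1*, which encodes a zinc finger partner of PIWI proteins. Its level was 0.1003, 0.0433, 0.0802 and 0.866 CPM in *Ehmt2* controls and 5.31, 3.46, 5.35 and 3.54 CPM in *Ehmt2* knockouts. Every knockout was well above every control, although control 4 was higher than the other controls. *Gtsf1* passed the filter on low counts only through the knockouts. The log2 fold change was 4.73 ± 0.70 (adjusted p = 0.0114, edgeR). The fold stayed near this value but missed the threshold without *Ehmt2* control 1 (4.50, adjusted p = 0.0691), control 2 (4.26, 0.0567) or control 3 (4.46, 0.0760), and with the replicate number as a block (4.77, 0.0552). It also missed it without the term for replicate 4 (3.98, 0.134). Without *Ehmt2* control 4 it was 5.95 (adjusted p = 0.00014), and with the extraembryonic ectoderm covariate 3.05 (0.0356). *Gtsf1* had at most 0.114 CPM in *Ezh2* controls and 0.278 CPM in *Ezh2* knockouts and did not pass the filter.

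In the *Ezh2* cross 11 of the 20 genes passed the filter, 7 with a positive and 4 with a negative log2 fold change (median 0.56). There edgeR called 0, against 0% of genes, and had 1 higher at an unadjusted p under 0.05, against 5.5% of genes. That gene was *Tex15*, a germ cell gene required for transposon silencing in the testis, which is named here after its values were seen. *Ezh2* controls had 4.63, 6.68 and 10.8 CPM and *Ezh2* knockouts 22.5, 21.6 and 28.0 CPM, without overlap. The log2 fold change was 1.71 ± 0.28 (adjusted p = 0.161, edgeR), and DESeq2 called it (adjusted p = 5.07e-07). *Rnf17*, a Tudor and RING finger gene of male germ cells, had the highest level of the list per kilobase. It had 12.1 to 32.9 CPM in *Ehmt2* controls and 22.4 to 40.2 CPM in *Ehmt2* knockouts (log2 fold change 0.71, adjusted p = 0.244, edgeR), and 9.62 to 18.3 and 8.79 to 13.9 CPM in *Ezh2* controls and knockouts (-0.23, adjusted p = 0.911).

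**Figure D5:**
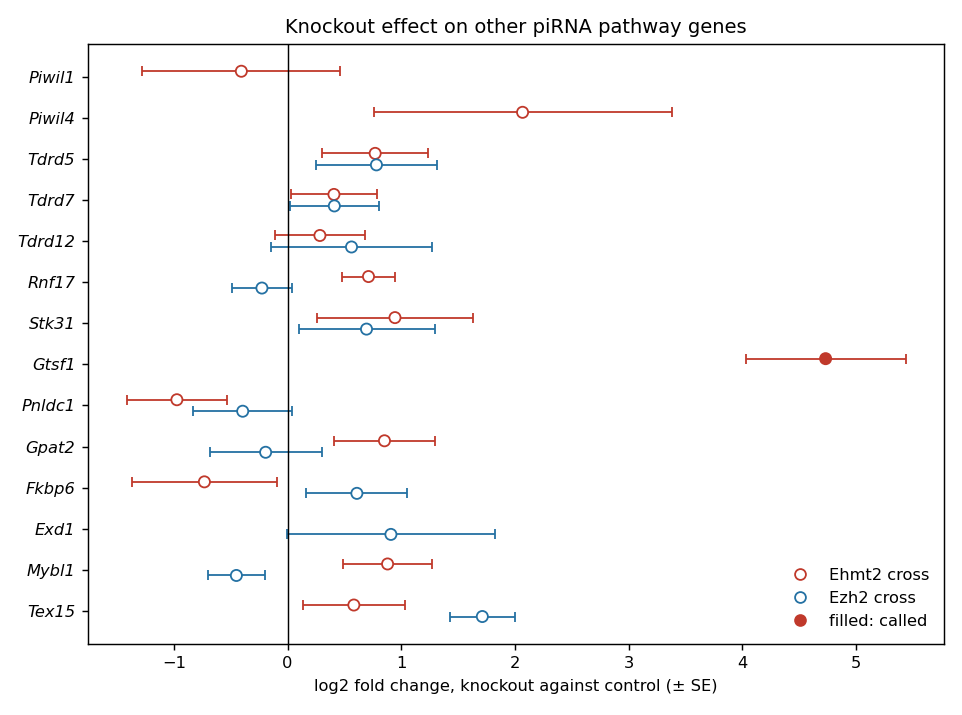
Log2 fold change of knockout against control (horizontal axis) with its standard error for the other piRNA pathway genes that passed the filter (vertical axis), 13 in the *Ehmt2* cross (red) and 11 in the *Ezh2* cross (blue). The filled point is *Gtsf1* at 4.73, and *Tex15* has the largest *Ezh2* value, 1.71.

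Germ cell regulators of RNA outside the pathway gave other values. Of 9 such genes 6 passed the filter in the *Ehmt2* cross and 7 in the *Ezh2* cross, with median log2 fold changes of -0.23 and 0.52. Both edgeR and DESeq2 called 0 in either cross, and at an unadjusted p under 0.05 edgeR had 1 lower in *Ehmt2* knockouts and 1 higher in *Ezh2* knockouts. The highest per kilobase was *Dnd1*, which protects germ cell mRNAs from microRNAs, at 5.44 CPM in *Ehmt2* controls and 5.31 CPM in *Ehmt2* knockouts. The last list held 12 relatives of the pathway that work in somatic cells, such as *Ddx3x*, a DEAD-box helicase gene related to *Ddx4*. Their median log2 fold changes were -0.01 over 11 genes in *Ehmt2* knockouts and -0.04 over 12 in *Ezh2* knockouts. Both edgeR and DESeq2 called 0, and at an unadjusted p under 0.05 edgeR had 1 higher in each cross. The shares of all genes that were higher at that p were 8.58% in *Ehmt2* and 5.5% in *Ezh2* knockouts. *Ddx3x*, the highest of them per kilobase, had 367.7 CPM in *Ehmt2* controls and 364.8 CPM in *Ehmt2* knockouts.

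The genes whose pattern over the 14 epiblasts was closest to that of *Asz1*, by Pearson correlation of log2(CPM + 0.5) among 11712 genes with a mean of at least 1 CPM, were *Magea8* (r = 0.98), *Magea10* (0.96), *Pdha2* (0.95), *Nxf3* (0.95) and *Magea5* (0.95). The *Magea* genes are a family whose near-identical copies can share reads, and *Pdha2* is the testis form of a pyruvate dehydrogenase subunit. *Magea8* had at most 0.0752 CPM in *Ehmt2* controls, 2.96 to 9.49 CPM in *Ehmt2* knockouts and 0 in all 6 *Ezh2* epiblasts. For *Ddx4*, the gene of the highest mean level, the closest were *Prlr* (r = 0.89), *Hormad2* (0.89), *Sec24d* (0.86), *Stau1* (0.85) and *A130010J15Rik* (0.85). Among the 9 genes themselves the highest pairwise value was that of *Piwil2* and *Mov10l1* (r = 0.84). These points share libraries and genotype groups, and the correlations are descriptions.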

How the data were processed

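The authors trimmed reads to 40 nt, removed adapters, aligned them with TopHat2 to GRCm38 (mm10), counted them with HTSeq per Ensembl release 74 transcript and deposited these raw counts. The strand setting is not given in the sources used here. Files of the other assays were not used here. A not_aligned row in both replicate 4 files, 12.6% and 13.3% of their counts, was left out. Of 72515 transcripts, 70021 (96.6%) matched GENCODE release 21 names. Low transcripts were removed with filterByExpr, each cross was fitted with edgeR 4.0.16 (R 4.3.3, TMM, quasi-likelihood), and calls needed an adjusted p under 0.05 over all tested transcripts and a log2 fold change over 1.4. The *Ehmt2* fit had a term for replicate 4. DESeq2 1.42.0 was the alternative. The code was tested on simulated data. The genes named were the 9 genes, called or most abundant genes of further lists, both targeted genes and the 5 most correlated genes. The genes and lists were chosen with earlier results of these data known. Figures were drawn with matplotlib 3.10.9.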

Additional observations from a re-analysis of the deposited data

Results flagged for a closer look

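The knockout effects on *Asz1* in the 2 crosses differed by 9.27 on the log2 scale (adjusted p = 0.0156, edgeR). This did not pass the threshold with the replicate block (8.85, adjusted p = 0.199), without *Ezh2* control 2 (6.34, 0.421), without *Ezh2* knockout 2 (8.67, 0.0541) or without both *Ezh2* epiblasts high in visceral endoderm markers (6.04, 0.449).

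Of 40 groups of 4 *Ehmt2* epiblasts examined, 4 had an epiblast far from the other three, where chance gives about 1 in 20. *Ddx4* was at 27.8 CPM in *Ehmt2* knockout 4 and at most 10.2 CPM in the others. The sum of the 8 genes without *Asz1* was 51.4 CPM in the same epiblast, and *Ddx4* is part of that sum. *Gtsf1* was at 0.866 CPM in *Ehmt2* control 4. *Tex15* was at 11.9 CPM in *Ehmt2* knockout 1 and at most 4.70 CPM in the other *Ehmt2* knockouts.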

How the results depend on the processing

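*Asz1* was called higher in *Ehmt2* knockouts under all 16 alternatives run, with log2 fold changes of 7.62 to 8.36. The number of the 9 genes called there was 1, but 3 without the filter on low counts, 3 with DESeq2, 3 at an unadjusted p under 0.05 with the fold minimum and 2 with extraembryonic ectoderm markers as a covariate, and *Ddx4* and *Piwil2* were the genes added by the first 2 of these. In *Ezh2* knockouts it was 0, but 1 with DESeq2 and 1 at an unadjusted p under 0.05 with the fold minimum, and leaving out any epiblast left it at 0. For the other piRNA pathway genes the *Ehmt2* count of 1 became 0 with the replicate block and 0 without the term for replicate 4, and 0 to 1 when an epiblast was left out. The *Ezh2* count of 0 became 1 without the filter, 1 with DESeq2 and 1 at an unadjusted p under 0.05 with the fold minimum. The number of genes whose effects differed between crosses was 1 and became 0 with the replicate block, 0 without both *Ezh2* epiblasts high in visceral endoderm markers (chosen after seeing the data) and 0 to 1 when an epiblast was left out. With the block the *Asz1* difference was 8.85 (adjusted p = 0.199) and the adjusted p of *Gtsf1* was 0.0552. Among the 9 genes, the other piRNA pathway genes and the *Tdrd1* difference the block changed no other call, and its effect on the markers and targeted genes was not examined. Same-numbered epiblasts correlated at 0.062 to 0.416 (*Ehmt2*) and -0.181 to 0.23 (*Ezh2*) in their deviations from group means, not every one best with its own number, so the numbers were not taken to pair them. *Pld6* in the *Ehmt2* cross turned to 0.18 with the covariate, 0.079 without the term for replicate 4, and ranged from -0.60 to 0.12 when an epiblast was left out (positive without *Ehmt2* knockout 3). In the *Ezh2* cross *Dazl* turned to -0.16 and *Piwil2* to -0.57 with the covariate, and *Rnf17* ranged from -0.43 to 0.032 when an epiblast was left out (positive without control 3). The causes were not tested. The 8 genes other than *Asz1* had a median of 118 reads per epiblast (13 to 1665), which limits the folds that could be detected.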
